A study of Mus musculus with 24 samples.

Results

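Prostaglandin E2 is a short-lived lipid signal that cells make from arachidonic acid and that acts on neighbouring cells. The 7 genes described here encode its synthesis (Ptgs1, Ptgs2, Ptges, Ptges2, Ptges3), its breakdown (Hpgd) and a receptor for it (Ptger4). They were found by symbol among the 57126 gene identifiers of a count table from mouse ileum. All 7 were present, and all 7 were among the 13125 genes that passed the filter on low counts. They were selected on their symbols, with the levels and fitted changes of the same libraries already known. The values below therefore describe these genes, the p-values place them among all genes tested, and neither lends independent support to a direction.

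The tissue was ileum, where the small intestine ends and most bile acids are taken up, from male C57BL/6J mice of wild-type genotype starved for 4 h. Fragments of it were kept for 8 h with an additive, and their mRNA was counted by QuantSeq, which reads each transcript near its 3' end. The 6 groups received the solvent DMSO (0.6% in the libraries used), tauro-conjugated chenodeoxycholic acid (tCDCA, a taurine-conjugated bile acid, labelled 200 µM for replicates 2 to 4), or an extract. Extracts came from donor mice that were wild-type (WT) or Asbt-/- and had 2 forms, CME(-), labelled 200 µM for replicates 2 to 4, and CME(+). The labels do not spell out CME, and CME(+) was read as the form depleted of bile acids. Slc10a2 encodes Asbt, the carrier that takes bile acids up in the ileum. Asbt-/- is the genotype of the extract donor only: the treated tissue was wild-type in every library.

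Of 24 libraries, 21 were used: 3 with DMSO, 4 with tCDCA, 4 with WT CME(-), 3 with WT CME(+), 3 with Asbt-/- CME(-) and 4 with Asbt-/- CME(+). The other 3 are marked as removed in the labels. Prefixes of the column names were taken as 2 sequencing runs. Replicate 1 of each group is in the first run and replicates 2 to 4 are in the second, and DMSO has no used first-run library, since its first-run library had 0.5% DMSO. Totals were 2.76 to 5.6 M counts per used library, and the share of mitochondrial rRNA was 6.78 to 8.29% in first-run libraries and 5.29 to 34.6% in those of the second run. The lowest second-run share belonged to tCDCA replicate 3 and the highest to DMSO replicate 3. All 10 enterocyte markers were detected in every group. The labels name no separate animals for the fragments of a group. The p-values thus rest on the spread among libraries, which may be technical.

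Prostaglandin E2 synthesis starts when a cyclooxygenase oxidizes arachidonic acid to prostaglandin H2. Ptgs1 encodes the form that most tissues make steadily, and Ptgs2 encodes the form that growth factors, cytokines and tissue injury induce. A prostaglandin E synthase (Ptges, Ptges2 or Ptges3) then makes prostaglandin E2, Hpgd starts its inactivation, and Ptger4 is one of its receptors, coupled to cyclic AMP. In the intestine the signal is known for its part in epithelial repair, mucus and fluid secretion and protection of the mucosa.

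The promoters of the 3 genes whose levels differed most between tCDCA and DMSO are shown with the short motifs found there. All 7 genes matched RefSeq's promoter windows on GRCm38.p6, 250 bases before to 50 after the annotated start. This is an older build than the GRCm39 of the counts, so it serves only for these windows. Capitals mark matches to the motifs searched on both strands: a cyclic AMP response half-site (ACGTCA), an E-box (CACGTG), a C/EBP palindrome (TTGCGCAA), a kappa-B pattern (GGGA and CC with any 4 bases between them), the TATA motif (TATAAA), a GC box (GGGCGG), an FXR half-site (AGGTCA) and the inverted repeat bound by FXR, the bile acid receptor (AGGTCA followed after any 1 base by TGACC).
Ptgs2, chr1:150099781-150100080, plus strand: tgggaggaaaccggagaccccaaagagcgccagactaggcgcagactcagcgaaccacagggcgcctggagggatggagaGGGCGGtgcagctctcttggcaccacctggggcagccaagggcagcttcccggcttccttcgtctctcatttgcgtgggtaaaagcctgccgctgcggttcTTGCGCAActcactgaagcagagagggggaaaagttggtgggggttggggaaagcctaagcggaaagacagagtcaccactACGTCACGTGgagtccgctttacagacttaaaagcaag
Ptges, chr2:30903248-30903547, minus strand: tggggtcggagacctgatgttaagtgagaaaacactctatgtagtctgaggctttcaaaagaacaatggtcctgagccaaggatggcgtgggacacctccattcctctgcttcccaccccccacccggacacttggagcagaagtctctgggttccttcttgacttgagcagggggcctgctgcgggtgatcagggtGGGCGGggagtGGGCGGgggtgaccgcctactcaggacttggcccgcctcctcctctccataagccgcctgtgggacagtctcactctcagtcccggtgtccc
Hpgd, chr8:56294302-56294601, plus strand: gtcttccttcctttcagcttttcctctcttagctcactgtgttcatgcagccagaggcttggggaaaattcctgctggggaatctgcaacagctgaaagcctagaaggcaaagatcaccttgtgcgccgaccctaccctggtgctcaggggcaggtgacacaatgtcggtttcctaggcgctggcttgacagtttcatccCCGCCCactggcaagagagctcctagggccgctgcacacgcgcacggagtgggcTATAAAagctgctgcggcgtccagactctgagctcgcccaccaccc
In the Ptgs2 window the C/EBP palindrome began 69 bases before the start, a GC box began 170 bases before it, and the cyclic AMP half-site and the E-box overlapped from position 13 after it. The palindrome was in 0.183% of 32851 promoter windows of the same length, the cyclic AMP half-site in 7.51% and the E-box in 7.15%. Ptges held 2 GC boxes, a motif in 35.7% of windows. Hpgd held the letters TATAAA (in 13.6% of windows) from position 5 after the annotated start, and a GC box on the minus strand from 50 bases before it. Among the windows not shown, Ptges2 held an E-box, Ptges3 a kappa-B pattern and GC boxes, and Ptger4 GC boxes. Ptgs1 held none of the motifs, and none of the 7 windows held the FXR half-site (16.3%) or its inverted repeat (0.0274%). A match is a description of the letters in this window and shows no binding.

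In the second-run libraries the fragments with tCDCA had more Ptgs2 and Ptges transcripts and fewer Hpgd transcripts than those with DMSO. Hpgd passed the test (adjusted p under 0.05 in the edgeR quasi-likelihood fit of 21 libraries, Benjamini-Hochberg over 13125 genes), and Ptgs2 and Ptges did not. That is 1 of 7 genes called, where 5.68% of all genes tested were called in this comparison. Nothing is read from that count, since the genes were chosen with this contrast known. Levels are in CPM (counts scaled to a common library total, after TMM scaling), and fitted changes are log2 with standard error (SE).

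**Figure D1:**
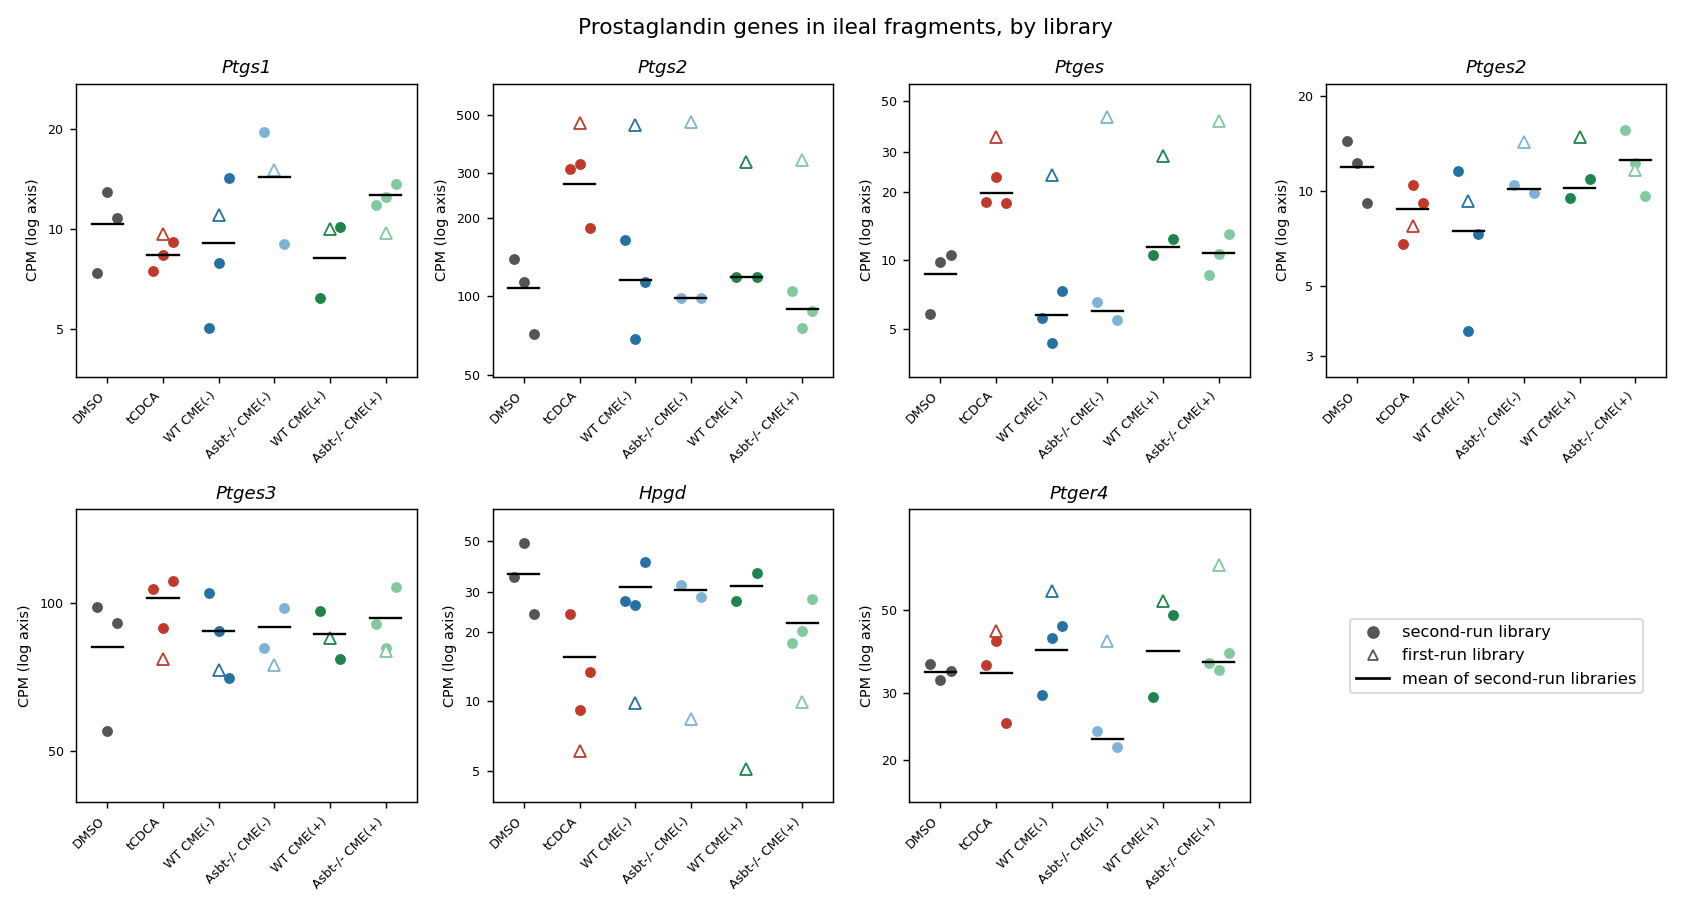
Level of each gene (CPM, log axis) in every used library, by group. Circles are second-run libraries, open triangles first-run libraries and bars the mean of the second-run libraries; for Ptgs2 and Ptges the 3 second-run tCDCA circles lie above all DMSO circles, and the triangles of these genes lie above the circles of their own group.

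Ptgs2 (ENSMUSG00000032487), the inducible cyclooxygenase, was at 139, 114 and 71.5 CPM in the 3 DMSO libraries. With tCDCA it was at 309, 325 and 183 CPM in the second run, a mean of 273 ± 77.6 (SD, n = 3) against 108 ± 34 (n = 3). The lowest tCDCA library stood above the highest DMSO library, a separation upward that 9.33% of all genes tested showed. The fitted change was 1.15 ± 0.33 log2 units, 2.21-fold, with an edgeR adjusted p of 0.0523 and a 95% interval of 0.45 to 1.84. Ptgs2 was called in 12 of 32 alternative settings. Its change was 1.34 (adjusted p 0.01) within the second run, 0.92 (0.17) without DMSO replicate 4 and 0.97 (0.16) without tCDCA replicate 3.

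Ptgs2 in the extract groups lay within or close to the range of DMSO. Second-run levels were 165, 68.7 and 114 CPM with WT CME(-), 98.8 in both libraries with Asbt-/- CME(-), 119 in both with WT CME(+), and 105, 75.4 and 87.6 with Asbt-/- CME(+). Each of these groups overlapped the DMSO libraries, and every one of these libraries was below the 3 with tCDCA. Of all genes tested, 1.34% were likewise higher in the 3 tCDCA libraries than in every other second-run library. The fitted changes against DMSO ran from -0.22 ± 0.33 for Asbt-/- CME(+) to 0.18 ± 0.33 for WT CME(-), with 95% intervals of -0.91 to 0.47 and -0.52 to 0.87.

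Ptgs1 (ENSMUSG00000047250), the steady cyclooxygenase, was at 7.34, 12.9 and 10.8 CPM with DMSO and at 7.47, 8.36 and 9.11 CPM with tCDCA in the second run. The groups overlapped, and the fitted change was -0.28 ± 0.35 log2 units (edgeR adjusted p 0.763, 95% interval -0.98 to 0.42). Its widest group was Asbt-/- CME(-), with 19.6 and 9.02 CPM. Only 17 to 77 counts lay behind these levels in each library, so their counting error is wide: the 7.34 CPM of DMSO replicate 2 had an exact 95% Poisson interval of 4.7 to 10.9, which covers counting error only.

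The 3 prostaglandin E synthases differed in their pattern. Ptges (ENSMUSG00000050737), the inducible microsomal enzyme that works with Ptgs2, was at 5.81, 9.79 and 10.5 CPM with DMSO. With tCDCA it was at 18, 23.2 and 17.9 CPM in the second run, a mean of 19.7 ± 3.06 (SD, n = 3) against 8.71 ± 2.54 (n = 3). All 3 tCDCA libraries were above all DMSO libraries, as for 9.33% of all genes tested. They were also above every second-run library of the extract groups, and 1.34% of all genes tested were above every other second-run library. The fitted change was 0.96 ± 0.32 log2 units, 1.94-fold (edgeR adjusted p 0.0682, 95% interval 0.31 to 1.60), and it was called in 4 of 32 alternative settings. It was 1.18 (0.0242) within the second run, 0.73 (0.27) without DMSO replicate 2 and 0.77 (0.216) without tCDCA replicate 3.

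In the extract groups Ptges was lower with both CME(-) extracts than with both CME(+) extracts in the second run. WT CME(-) libraries were at 5.6, 4.32 and 7.3 CPM and Asbt-/- CME(-) libraries at 6.53 and 5.49. WT CME(+) libraries were at 10.5 and 12.4 CPM and Asbt-/- CME(+) libraries at 8.58, 10.7 and 13. No CME(-) library reached the lowest CME(+) library in this run, a separation in this direction that 1.87% of all genes tested showed. In the first run the order was not the same: 23.6 and 42.6 CPM with the CME(-) extracts against 28.8 and 41 with CME(+). Over both runs the change of CME(-) against CME(+) was -0.54 ± 0.22 log2 units, with an edgeR adjusted p of 0.374.

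Ptges2 (ENSMUSG00000026820) encodes another membrane-associated synthase. It was at 14.4, 12.2 and 9.14 CPM with DMSO and at 6.79, 10.4 and 9.11 with tCDCA, and the groups overlapped. Its fitted change was -0.53 ± 0.33 log2 units (edgeR adjusted p 0.436). WT CME(-) had the lowest second-run mean, 7.47 ± 3.95 CPM (SD, n = 3), with a change against DMSO of -0.62 ± 0.34 (adjusted p 0.588).

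Ptges3 (ENSMUSG00000071072), the cytosolic synthase that is also the HSP90 co-chaperone p23, had a narrower range for its level than the other synthases over the libraries of each run. It was at 98.1, 54.9 and 90.9 CPM with DMSO and at 107, 89 and 111 with tCDCA, overlapping groups with a fitted change of 0.29 ± 0.18 log2 units (edgeR adjusted p 0.446). Over the 5 first-run libraries it ran from 73 to 85 CPM and over the 16 of the second run from 54.9 to 111. Ptges and Ptges2 had as few as 12 and 10 counts in a second-run library, against at least 157 for Ptges3. Counting error therefore widens their ranges more. With DMSO alone Ptges3 was not steadier than Ptges2, at 81.3 ± 23.1 CPM against 11.9 ± 2.63 (SD, n = 3 each). The changes of Ptges3 against DMSO in the 4 extract groups were between 0.10 and 0.20, each with an SE of 0.18 or 0.20.

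Hpgd (ENSMUSG00000031613) encodes the dehydrogenase that oxidizes prostaglandin E2 at carbon 15 and so begins its inactivation. It was at 34.8, 49 and 24.1 CPM in the 3 DMSO libraries and at 24.1, 9.14 and 13.5 CPM with tCDCA in the second run. The highest tCDCA library equalled the lowest DMSO library to 3 digits, and the other tCDCA libraries were below all of DMSO. The means were 15.6 ± 7.69 CPM (SD, n = 3) and 36 ± 12.5 (n = 3). Hpgd fell by 1.13 ± 0.30 log2 units, 2.19-fold, with an edgeR adjusted p of 0.0163 and a 95% interval of -1.73 to -0.53.

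The call of Hpgd rests on few libraries. DMSO replicate 3 held its highest level and tCDCA replicate 3 its lowest, and these are also the libraries with the most and the least mitochondrial rRNA of the second run, whose part in the result was not tested. Without DMSO replicate 3 the change of Hpgd was -0.85 (adjusted p 0.189), without tCDCA replicate 3 it was -0.89 (0.0797), without tCDCA replicate 4 it was -1.04 (0.067), and without both replicates 3 it was -0.61 (0.424). The extract groups were between 18 and 40.6 CPM in the second run. All of them overlapped DMSO, with the lowest mean, 22 ± 5.12 CPM (SD, n = 3), in Asbt-/- CME(+), where the change against DMSO was -0.57 ± 0.29 (edgeR adjusted p 0.347).

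Ptger4 (ENSMUSG00000039942), a prostaglandin E2 receptor coupled to cyclic AMP, was at 35.8, 32.5 and 34.3 CPM with DMSO and at 35.6, 41.3 and 25.1 with tCDCA. The tCDCA libraries lay on both sides of DMSO, and the change was -0.07 ± 0.21 log2 units (edgeR adjusted p 0.923, 95% interval -0.49 to 0.36). Asbt-/- CME(-) was the lowest group, at 23.8 and 21.6 CPM, below all DMSO libraries, as were 14.2% of all genes tested in that group. Its change was -0.49 ± 0.23 (adjusted p 0.377), and the first-run library of that group was also the lowest of its run, at 41.2 CPM. The difference between the extract forms in WT less that in Asbt-/- was 0.68 ± 0.30 for Ptger4, with an edgeR adjusted p of 1. Ptger4 overlaps the protein-coding gene Ttc33 on the opposite strand, and no strand setting of the counting is given, so reads of the pair cannot be told apart. Ptgs1, Ptges and Hpgd each overlap a gene model of unknown function or a pseudogene (Gm43621, Gm13400 and Gm45540).

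**Figure D2:**
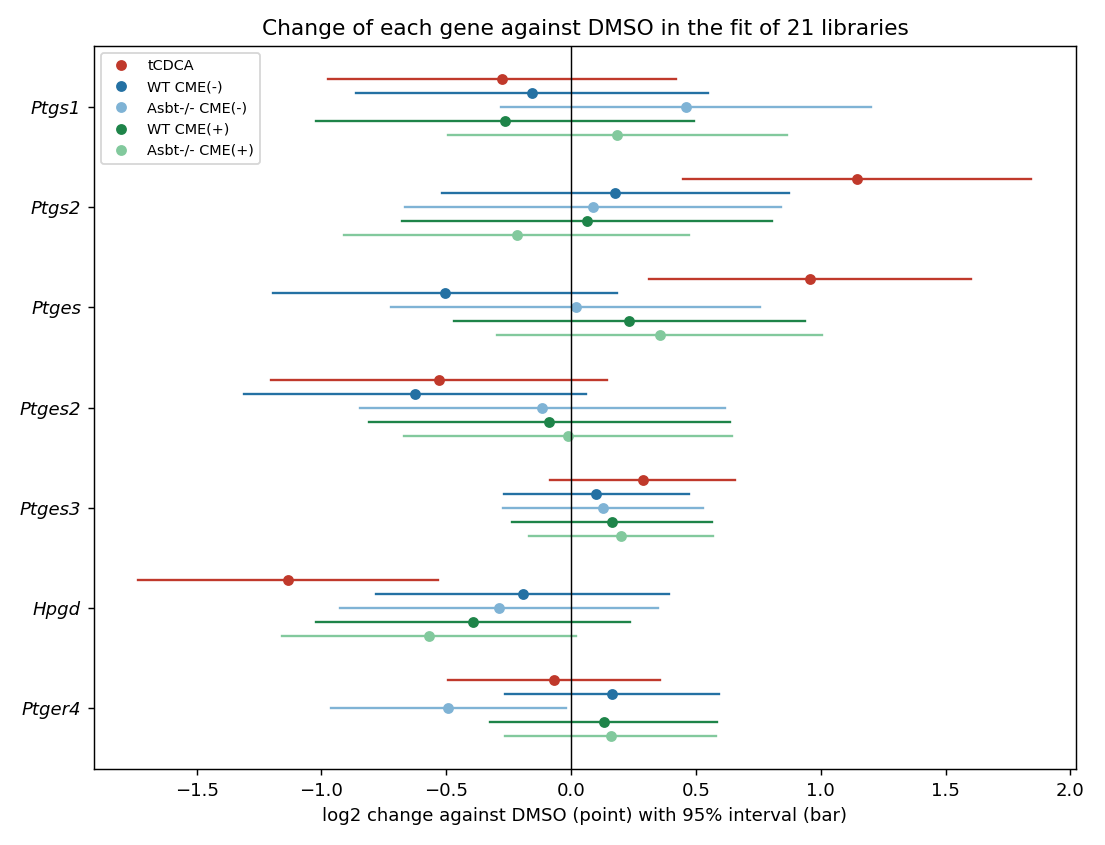
Fitted log2 change of each gene against DMSO (x axis) in the 5 treated groups, with 95% intervals, from the fit of 21 libraries. The tCDCA intervals of Ptgs2 (0.45 to 1.84), Ptges (0.31 to 1.60) and Hpgd (-1.73 to -0.53) exclude 0 without adjustment, and of the extract intervals only that of Ptger4 in Asbt-/- CME(-), -0.96 to -0.02, does so.

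A ratio of 2 genes within a library does not depend on how libraries are scaled. The ratio of Ptgs2 to Hpgd counts was 3.98, 2.33 and 2.97 in the DMSO libraries and 12.8, 35.6 and 13.6 in the second-run tCDCA libraries. In the second-run extract libraries it ran from 2.62 to 6, so all 3 tCDCA libraries were above every other second-run library. The ratio of Ptges to Hpgd was 0.167, 0.2 and 0.437 with DMSO and 0.746, 2.54 and 1.33 with tCDCA, against 0.164 to 0.526 in the extract groups. A ratio shows that the genes changed unequally, not that either was constant. The pairs were formed from genes already seen to rise or fall with tCDCA, so a wider separation was built in. It adds no support beyond the levels of the single genes.

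**Figure D3:**
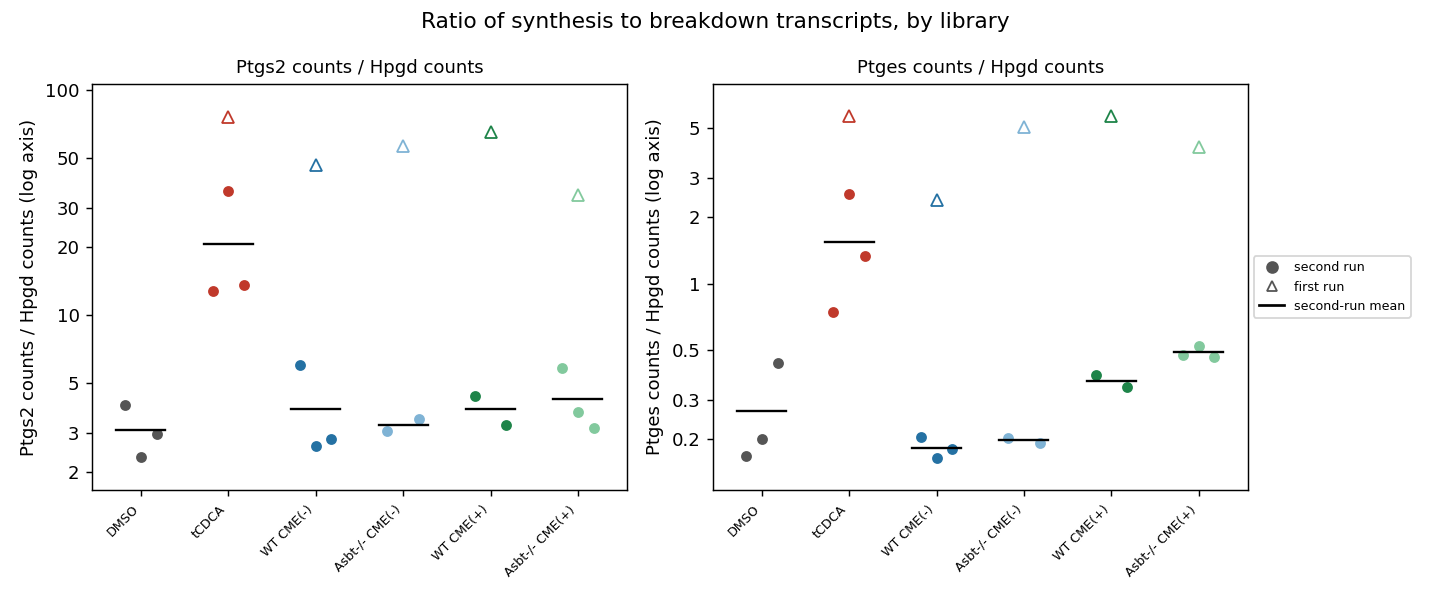
Ratio of Ptgs2 to Hpgd counts and of Ptges to Hpgd counts (log axes) in each used library, by group. The pairs were chosen with the direction of each gene known. Circles are second-run and open triangles first-run libraries, and bars are second-run means; the second-run tCDCA libraries (12.8 to 35.6 for Ptgs2 over Hpgd) stand above all other second-run libraries, and all 5 first-run libraries are at 34 or higher.

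The same 3 genes that differed most between tCDCA and DMSO differed most between the runs. In the first run Ptgs2 was at 331 to 472 CPM (median 457 over 5 libraries) against 68.7 to 325 (median 114 over 16) in the second, with no overlap. Ptges was at 23.6 to 42.6 CPM against 4.32 to 23.2, again with no overlap. Of all genes tested, 5.07% were likewise higher in every first-run library than in any second-run library. Hpgd was at 5.09 to 9.93 CPM against 9.14 to 49, overlapping only at tCDCA replicate 3. In the fit, the second run was lower than the first by 1.71 ± 0.21 log2 units for Ptgs2 (edgeR adjusted p 5.84e-06) and by 1.77 ± 0.20 for Ptges (1.87e-09), and higher by 1.67 ± 0.22 for Hpgd (1.37e-07). Ptger4 was lower by 0.61 ± 0.14 (0.000446), and Ptgs1, Ptges2 and Ptges3 were not called. That is 4 of 7 genes, where 37.3% of all genes tested were called between the runs.

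**Figure D4:**
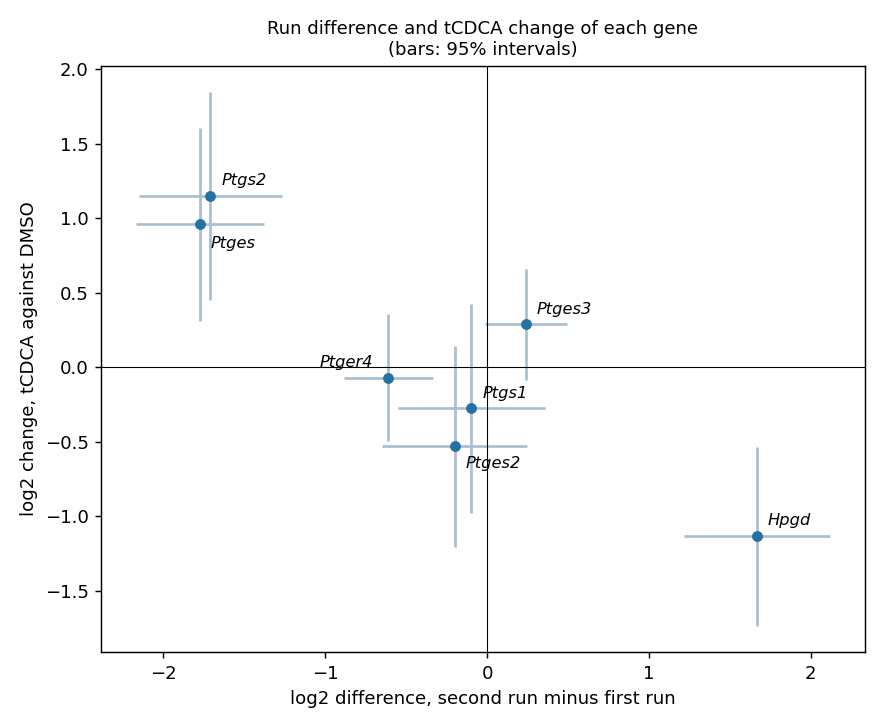
Fitted log2 difference between the runs (second minus first, x axis) against the fitted log2 change with tCDCA (y axis) for the 7 genes, with 95% intervals. Ptgs2 (-1.71, 1.15) and Ptges (-1.77, 0.96) lie at the upper left and Hpgd (1.67, -1.13) at the lower right; both axes come from the same fit and share the tCDCA libraries.

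Within the first run tCDCA did not stand apart from the extracts. Ptgs2 was at 464 CPM with tCDCA, 457 with WT CME(-), 472 with Asbt-/- CME(-), 331 with WT CME(+) and 337 with Asbt-/- CME(+). Ptges was at 34.6 CPM with tCDCA and from 23.6 to 42.6 with the extracts, and Hpgd was at 6.09 CPM with tCDCA and from 5.09 to 9.93 with the extracts. The first-run library with 0.5% DMSO, left out of the fit, was at 312 CPM for Ptgs2, 21.7 for Ptges and 7.61 for Hpgd when scaled with all 24 libraries. With 1 library per group these first-run values have no replicate check.

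Marker genes of several cell types also differed between the runs. Myeloid markers summed to between 290 and 354 CPM in the first run and between 75.5 and 122 in the second, and 9 of 11 were lower in the second (median -1.67). Mesothelial markers summed to 999 to 1330 CPM and 302 to 749, with 4 of 4 tested lower (median -2.89). Fibroblast markers summed to 804 to 1070 CPM and 312 to 545, with 6 of 10 lower (median -1.22). None of these 3 sums overlapped between the runs. Enterocyte sums did overlap, at 8030 to 11500 CPM and 4930 to 13700, with 5 of 10 markers higher and 2 lower in the second run (median 0.91). Higher in the second run were 3 of 6 tested tuft, 2 of 6 Paneth and 1 of 6 endothelial markers. Of 8 smooth muscle markers 2 were higher and 1 lower, and of 3 tested mast cell markers 1 was higher and 2 lower. Of all 13125 genes tested, 2482 were called higher and 2411 lower in the second run. The part of these markers in the run difference was not tested.

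Because tCDCA and the CME(-) extracts carry the same labelled concentration, tCDCA was also set against the mean of both CME(-) groups. Ptges was higher with tCDCA by 1.20 ± 0.25 log2 units, 2.3-fold (edgeR adjusted p 0.0102), the only 1 of the 7 genes called, where 0.93% of all genes tested were called. Ptgs2 was higher by 1.01 ± 0.26 (0.0846) and Hpgd lower by 0.89 ± 0.25 (0.0794). The other 4 genes had changes between -0.43 ± 0.28 for Ptgs1 and 0.17 ± 0.15 for Ptges3. Without tCDCA replicate 3 the change of Ptges was 1.01 (adjusted p 0.0649), and without Asbt-/- CME(-) replicate 2 it was 1.11 (0.0538). This contrast shares the tCDCA libraries with the one against DMSO and is not independent of it.

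None of the 7 genes was called with any extract against DMSO, by edgeR or by DESeq2, and at an unadjusted p under 0.05 only Ptger4 with Asbt-/- CME(-) appeared, where 1625 of all 13125 genes did. The shares of all genes called there were 0.297% with WT CME(-), 0.952% with Asbt-/- CME(-), 0.175% with WT CME(+) and 2.31% with Asbt-/- CME(+). The CME(-) extracts against the CME(+) extracts gave 0 of 7 genes (0.434% of all genes), with Ptges at -0.54 ± 0.22 and Ptger4 at -0.31 ± 0.15 (edgeR adjusted p 0.476) as the changes of smallest p. At an unadjusted p under 0.05, these were 2 of the 7 genes and 1285 of all 13125. Extracts of WT against Asbt-/- donors gave 0 genes of all tested by edgeR and 1 by DESeq2, with 686 at an unadjusted p under 0.05, among them Ptgs1 at -0.53 ± 0.24 and Ptger4 at 0.31 ± 0.15 (both with an edgeR adjusted p of 0.943).

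The genes whose levels followed each of the 7 most closely were taken from 7647 genes, by Pearson's r of log2 CPM over the 16 second-run libraries, which share scaling and group structure, and are given with no p. Ptgs2 was closest to Cxcl2 (r = 0.938) and Cxcl1 (0.926), which encode neutrophil-attracting chemokines, and to Acsl4 (0.895), which encodes an enzyme that activates arachidonic acid. Ptges was closest to Cldn4 (0.87), which encodes a tight junction protein, Stc1 (0.849), which encodes a secreted glycoprotein hormone, and Clic1 (0.836). Hpgd was closest to App (0.926), Aplp1 (0.924) and Apob (0.92), the last encoding the structural protein of chylomicrons made by enterocytes. Ptgs1 was closest to Dnase1l3 (0.85), Ptges2 to Ilvbl (0.799), Ptges3 to Pfdn4 (0.846) and Ptger4 to Dock6 (0.826). Among the 7 genes themselves, r was 0.596 between Ptgs2 and Ptges, -0.569 between Ptges and Hpgd and -0.44 between Ptgs2 and Hpgd.

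Of 68 other genes listed for the pathway and its surroundings, 54 were tested, and 11 were called with tCDCA against DMSO, or 5 without tCDCA replicate 3 and DMSO replicate 3, 7 without DMSO replicate 3 alone and 7 without DMSO replicate 4. Of all genes tested, 5.68% were called in this comparison. The lists were chosen with earlier results of these data known, so nothing is read from these counts or from those of each list. The fitted values are described by list, and the median of all genes tested was 0. Of 12 tested genes that release or handle arachidonic acid, 2 rose and 1 fell (median 0.10). Acsl4 rose by 0.69 ± 0.18 log2 units, from 58.5 ± 11.3 CPM with DMSO to 102 ± 15.8 (SD, n = 3 each), with an edgeR adjusted p of 0.018. Without DMSO replicate 4 (adjusted p 0.135) or tCDCA replicate 2 it was not called. The secreted phospholipase gene Pla2g2f rose by 2.05 ± 0.62 (0.0419) from 1.22 to 2.22 CPM to 4.96 to 10.9 in the second run, and in 10 of 31 alternative settings it was not called. Pla2g12b, a phospholipase relative without known catalytic activity, fell by 1.41 ± 0.32 (0.00514), from 37.3 ± 8.78 to 11.2 ± 0.97 CPM. The cytosolic phospholipase gene Pla2g4a, which supplies arachidonic acid to cyclooxygenases, was at -0.22 ± 0.29 (0.784).

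On the side of breakdown and transport, 1 of 6 tested genes fell and none rose (median -0.21). Slco2a1, which encodes the transporter that brings prostaglandins into cells for oxidation by the Hpgd product, fell by 0.97 ± 0.22 log2 units (edgeR adjusted p 0.00503). It was at 50.7 to 97.6 CPM with DMSO and at 30.8 to 38 with tCDCA in the second run, with no overlap, and 9.78% of all genes tested lay wholly below DMSO in the same way. The call was absent in 6 of 32 alternative settings, among them without DMSO replicate 3 (adjusted p 0.203). The lower level was not particular to tCDCA in this run. Second-run means were 35.3 CPM with tCDCA, 40.7 with WT CME(-), 37.5 with Asbt-/- CME(-), 37.6 with WT CME(+) and 37.1 with Asbt-/- CME(+). Every second-run extract library also lay below the lowest DMSO library. Ptgr1 and Ptgr2, which encode reductases that act after Hpgd, were at -0.80 ± 0.34 (0.192) and -0.70 ± 0.24 (0.0763). Slco2a1 was also called with Asbt-/- CME(-), at -0.94 ± 0.25 (0.0488), but in 22 of 32 alternative settings it was not.

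Of the other prostanoid synthases, 1 of 5 tested fell and none rose (median -0.35). Prxl2b, which encodes a prostamide and prostaglandin F synthase, fell by 1.10 ± 0.29 (edgeR adjusted p 0.0164). It was not called in 6 of 32 alternative settings, among them without DMSO replicate 4 (adjusted p 0.114), DMSO replicate 3 or tCDCA replicate 4. Second-run means of Prxl2b were 22.3 CPM with DMSO, 10.9 with tCDCA, 12.6 with WT CME(-) and 16.2 to 21.1 with the other extracts. Among prostanoid receptors besides Ptger4, 2 of 8 had enough counts to be tested and neither was called: Ptger2 was at 1.21 ± 0.59 (0.275) and Ptgir at -0.33 ± 0.56 (0.844). The highest count of Ptger1 in any used library was 5 and that of Ptger3 was 17, so changes of these receptors were not detectable at this depth. In the list headed lipoxygenase branch, 1 of 5 tested genes fell, and it is not a lipoxygenase gene. Ephx2, the soluble epoxide hydrolase gene, fell by 1.74 ± 0.49 (0.0427), a call absent in 19 of 32 alternative settings. Its second-run means were 40 ± 18.7 CPM (SD, n = 3) with DMSO and 11.4 with tCDCA. With the extracts they were 26.3 for WT CME(-), 16.3 for Asbt-/- CME(-), 22.3 for WT CME(+) and 10.5 for Asbt-/- CME(+). The lipoxygenase and leukotriene genes tested (Alox5, Alox5ap, Lta4h and Alox12b) were not called.

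The last 2 lists hold genes around Ptgs2 signalling. Of 12 genes of the cyclic AMP response, 1 rose with tCDCA (median 0.36): Areg, which encodes an epidermal growth factor receptor ligand, by 0.85 ± 0.18 log2 units (edgeR adjusted p 0.00169), from 136 ± 9.8 to 264 ± 14.3 CPM (SD, n = 3 each). Crem was at 0.69 ± 0.26 (0.119) against DMSO and was higher than with the CME(-) extracts by 0.91 ± 0.21 (0.0194), a call lost in 7 of 32 alternative settings, among them without any 1 of tCDCA replicates 2 to 4 or Asbt-/- CME(-) replicates 2 and 4. The last list holds 12 genes of cytokine signalling: cytokines (Il1a, Il1b, Tnf, Il6, Lif), receptors (Tnfrsf1a, Il1r1), the adaptor Myd88, the transcription factors Nfkb1, Cebpb and Cebpd, and the NF-kappa-B inhibitor gene Nfkbia. Of these, 4 rose (median 0.76): Lif by 2.34 ± 0.33 (edgeR adjusted p 1.01e-05), Cebpb by 1.23 ± 0.27 (0.00259), Il6 by 1.88 ± 0.46 (0.022) and Il1b by 1.01 ± 0.24 (0.00627). Il6 was not called in 6 of 32 alternative settings, among them without DMSO replicate 3 (adjusted p 0.123), DMSO replicate 4 or tCDCA replicate 3, and its change was 2.76 without DMSO replicate 2. Il1b was not called in 3 of 32, among them without DMSO replicate 2 (0.0574). Cebpb was at 13.3 to 22.4 CPM with DMSO and 33.9 to 50.1 with tCDCA in the second run. Its first-run tCDCA level, 25.6 CPM, lay below the 28.9 of Asbt-/- CME(-). Against the CME(-) extracts Lif was higher by 1.58 ± 0.24 (0.00045), Areg by 0.67 ± 0.14 (0.0102) and Acsl4 by 0.56 ± 0.15 (0.0475), the last called in 13 of 32 alternative settings. Areg was not called there without tCDCA replicate 4 or Asbt-/- CME(-) replicate 2. With the extracts, Fos was the only gene of these 2 lists called against DMSO: it fell by 0.69 ± 0.16 with Asbt-/- CME(+) (0.01), and without DMSO replicate 3 or Asbt-/- CME(+) replicate 2 it was not called. Nfkb1 with tCDCA was at 0.48 ± 0.17 (0.0881) and Tnf at 0.72 ± 0.79 (0.72).

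**Figure D5:**
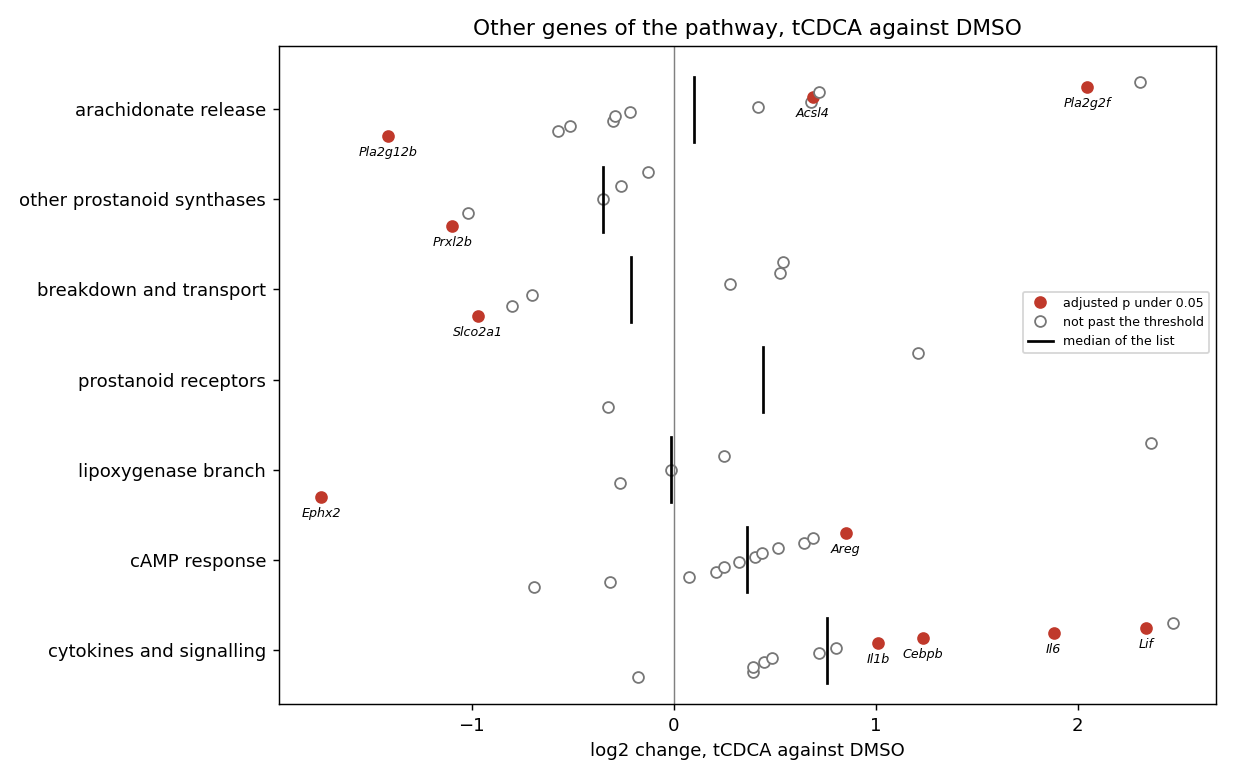
Fitted log2 change with tCDCA against DMSO (x axis) for the 54 tested genes of 7 pathway lists (rows). Filled points passed an adjusted p of 0.05, open points did not, and bars are list medians; the list of cytokines and signalling genes has the highest median (0.76) and the list of other synthases the lowest (-0.35).

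Markers of some cell types moved in the same comparison, in which 5.68% of all genes tested were called. Enterocyte markers summed to 10200 to 13700 CPM with DMSO and to 4930 to 8490 with tCDCA in the second run, and 6 of 10 fell (median -1.60). Paneth cell markers summed to 23100 to 26900 CPM with DMSO and 31200 to 48400 with tCDCA, and 3 of 6 rose. Myeloid markers, of a cell type that can make Ptgs2, summed to 88.3 to 112 CPM with DMSO and 95.4 to 122 with tCDCA in the second run, and 1 of 11 rose. Fibroblast markers summed to 519 to 545 and 331 to 539 CPM, with none of 10 called (median -0.45). Mesothelial markers summed to 302 to 484 and 437 to 749 CPM. Of these, 1 of 4 tested rose (Krt19), while the list median was -0.32, so the list did not rise as a whole. Of the smooth muscle (8 tested), endothelial (6), tuft (6) and mast cell (3) markers, none was called. In whole fragments, fewer cells of a type and less RNA per cell cannot be told apart, and the part of cell makeup in the levels of Ptgs2, Ptges and Hpgd was not tested.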

How the data were processed

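The values are raw counts for each gene identifier in 24 QuantSeq libraries, as the authors deposited them. The submitters' processing notes name cutadapt, HISAT2, Picard and FastQC, and the build GRCm39. Tool versions, counter, strand setting and annotation were not given in the sources used here. Symbols came from an older annotation (GENCODE M21), which named 51884 of 57126 identifiers.

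Counts of 21 libraries were fitted in R 4.3.3 with edgeR 4.0.16 (filterByExpr, TMM, robust quasi-likelihood, terms for group and run), giving 9 contrasts of 1 fit. P-values are two-sided and adjusted by Benjamini-Hochberg over 13125 genes, with calls made at 0.05. DESeq2 1.42.0 was an alternative. Both were tried on simulated counts with set changes in tCDCA. The simulation held no run difference, so it cannot check the run term. All replicate pairs differed by more than sampling noise (chi-square per degree of freedom of 7.12 to 147). By this measure tCDCA replicate 3 was nearer to the first-run tCDCA library (47.2) than to replicates 2 (96.5) and 4 (73.4) of its own run. What set it apart was not tested. Levels are CPM with mean and SD over the second-run libraries.

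The genes and lists were chosen with earlier results of these data known. All 7 genes were named, with the listed pathway genes called in any contrast, up to 3 per list by smallest p, and the 3 genes most like each of the 7 (mean log2 CPM of at least 3). The labels give same-numbered CME(-) and CME(+) replicates 2 to 4 of a donor genotype 1 extract donor. Their deviations from the group means correlated at -0.013 to 0.056 over 4 pairs, which cannot exclude pairing in groups this small.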

Additional observations from a re-analysis of the deposited data

Results flagged for a closer look

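In a group of 4 libraries, a library was singled out where its gap to the nearest other exceeded Dixon's 95% value. Of 21 tests, 4 passed, all at the first-run library, and chance gives about 1 in 20. They were Asbt-/- CME(+) replicate 1 for Ptgs2 (gap over range 0.889, 337 CPM against 75.4 to 105), for Ptges (0.865, 41 against 8.58 to 13) and for Ptger4 (0.881, 65.9 against 34.6 to 38.3). The other was WT CME(-) replicate 1 for Ptges (0.846, 23.6 CPM against 4.32 to 7.3). The run is a term of the fit, and what set the runs apart was not tested.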

How the results depend on the processing

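With tCDCA against DMSO, 1 of the 7 genes was called. The number was 0 without a run term, 2 without scaling factors, 2 with DESeq2, 2 without a filter on low counts, 2 without mitochondrial rRNA and the most abundant unnamed identifier, 3 with all 24 libraries, 3 with the second run only, and 2 with the replicate block. It ran from 0 to 3 when 1 library was left out. It was 0 without DMSO replicate 3, tCDCA replicate 3 or tCDCA replicate 4, and 3 without tCDCA replicate 1 or Asbt-/- CME(-) replicate 1. It was 0 with tCDCA and DMSO replicates 3 both left out, a setting chosen after seeing the data. For tCDCA against the CME(-) extracts, with 1 gene called, the number was 0 without a run term, 2 without scaling factors, 3 with DESeq2, 3 without a filter, 2 with all 24 libraries, 2 with the second run only, 0 to 2 with 1 library left out, and 0 without both replicates 3. The other 7 comparisons gave 0 of the 7 genes in every setting run. Ptgs2 and Ptges stayed higher and Hpgd lower with tCDCA than with DMSO in all 32 alternatives, at 0.92 to 1.57, 0.73 to 1.44 and -1.47 to -0.61 log2 units. They were called in 12, 4 and 26 of them.

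Over all genes, 746 were called with tCDCA against DMSO, 176 without a run term, 427 without scaling factors, 418 with all 24 libraries, 298 with only those groups fitted, and 327 without DMSO replicate 3. Of the listed pathway genes, 11 were called in this comparison, 2 without a run term, 5 with only those groups fitted and 5 without both replicates 3. None of 31 pairs of libraries with the same number in different groups correlated over 0.1. The deviations were taken from group means of only 2 or 3 libraries, which forces them to cancel within a group. This check therefore cannot tell whether shared numbers pair samples. A block by extract donor was fitted to the 4 extract groups only. There CME(-) against CME(+) gave 0 of the 7 genes and 102 of all genes. When these groups were fitted with a term for run and no donor block, 206 of all genes were called. The main fit, with 57 called, used all 21 libraries, so its number is not a like-for-like comparison for the block. Of 2568 alternative values of single genes, 90 changed sign, none of them called. For Ptgs1, Ptges, Ptges2 and Hpgd, counts as low as 17, 12, 10 and 24 in a library limit the precision.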
